A study of Rattus norvegicus with 9 samples.

Results

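The platelet-derived growth factor (PDGF) family comprises the ligand genes Pdgfa, Pdgfb, Pdgfc and Pdgfd, the receptor tyrosine kinase genes Pdgfra and Pdgfrb, and Pdgfrl, which encodes a receptor-like protein without a kinase domain. These 7 genes were taken by their symbols from a table of 32623 rat genes, and each symbol matched 1 row. Their transcripts were described in 9 RNA-seq libraries of cultured primary rat aortic vascular smooth muscle cells of wild-type genotype, in 3 groups of 3. The PDGF-BB+PTUPB group was pretreated for 2 h with 0.5 µM PTUPB, an inhibitor of both cyclooxygenase-2 and soluble epoxide hydrolase, and then received PDGF-BB for 24 h. The PDGF-BB group received PDGF-BB for 24 h without PTUPB, and the Control group received DMSO, the solvent. The sample labels give the PDGF-BB concentration as 10 ng/mL, whereas the series design gives 20 ng/mL. All groups shared passages 4 to 8, growth in 20% serum, 12 h without serum and treatment in 2% serum, so Control cells were not free of serum factors. Nothing in the labels ties replicates to distinct cultures or animals, and the p-values therefore describe library-to-library spread that may be technical.

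PDGF chains act as disulphide-linked dimers that bring receptor chains together and start kinase signalling. The alpha receptor binds A, B and C chains, and the beta receptor binds B and D chains, so the added PDGF-BB can engage both. In the artery wall PDGF is known as a mitogen and chemoattractant for smooth muscle cells, and bound receptors are taken up and degraded. The A and B chains are cut by proprotein convertases inside the cell, whereas the C and D chains are secreted in latent form and cut outside it.

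The promoter sequences of 4 members are shown because they include a receptor and a ligand whose transcripts fell, a ligand that did not pass the test, and the gene of the added growth factor. RefSeq windows of the GRCr8 build, 250 bases before to 50 after a start, matched 5 of the 7 members by symbol (Pdgfra, Pdgfa, Pdgfb, Pdgfc and Pdgfd). The part of each window upstream of the outermost RefSeq start of the gene is printed. It spans chr14:33408605-33408766 (minus strand, 162 bases) for Pdgfra, chr8:11773258-11773334 (plus strand, 77 bases) for Pdgfd, chr12:20759116-20759365 (plus strand, 250 bases) for Pdgfa and chr7:113438344-113438593 (minus strand, 250 bases) for Pdgfb. Capitals mark matches on either strand to a GC box (GGGCGG) or a CCAAT box (CCAAT).
Pdgfra: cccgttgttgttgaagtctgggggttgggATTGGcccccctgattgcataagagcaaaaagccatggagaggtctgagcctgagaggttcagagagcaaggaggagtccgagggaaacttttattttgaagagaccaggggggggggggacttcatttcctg
Pdgfd: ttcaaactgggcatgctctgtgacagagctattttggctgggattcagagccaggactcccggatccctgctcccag
Pdgfa: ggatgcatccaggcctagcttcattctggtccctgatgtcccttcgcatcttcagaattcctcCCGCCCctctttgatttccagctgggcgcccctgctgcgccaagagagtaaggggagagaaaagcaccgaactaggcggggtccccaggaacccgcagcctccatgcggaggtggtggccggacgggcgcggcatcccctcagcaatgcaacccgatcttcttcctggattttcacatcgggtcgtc
Pdgfb: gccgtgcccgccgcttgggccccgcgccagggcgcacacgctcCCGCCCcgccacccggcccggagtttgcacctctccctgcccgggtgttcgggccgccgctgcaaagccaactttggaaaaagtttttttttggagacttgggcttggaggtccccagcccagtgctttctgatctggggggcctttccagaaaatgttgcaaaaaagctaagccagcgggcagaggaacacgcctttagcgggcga

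Over the whole windows of 300 bases, GC boxes were matched once each in Pdgfa, Pdgfb and Pdgfd and not in Pdgfra or Pdgfc, against 33.1% of 33469 rat windows. A CCAAT box was matched in the Pdgfra window alone of the 5, against 37.5% of all windows. An AP-1 site (TGANTCA) was also matched once in Pdgfra, in the part not printed, against 7.33% of all windows. The TATA box (TATAAA) and the CArG box, known as the binding site of serum response factor, were matched in none of the 5 windows, against 14.2% and 1.64% of all. The CCAAT and AP-1 matches in Pdgfra do not overlap, and a match describes letters only.

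The libraries held 12729187 to 16911050 counts. Levels within a gene are given as CPM, counts divided by the library total after TMM scaling, and levels between genes as FPKM, fragments scaled for exonic length and library total. Control replicate 2 and PDGF-BB replicate 3 stood apart. In both, the deviation from the mean of the other libraries of the group fell with exonic length (Spearman -0.392 and -0.383 across 11197 genes, which are not independent replicates). Control replicate 1 (0.353) and PDGF-BB replicate 2 (0.356) showed the opposite trend, and the other libraries lay between -0.129 and 0.204. The library that stood apart is part of the reference of its group mates, so their opposite trend is not a separate trait. Of 9 smooth muscle markers, 8 had a mean FPKM of at least 1 in every group, with the list summing to 2689.6 to 2921 FPKM in PDGF-BB+PTUPB, 2599 to 2801 in PDGF-BB and 2201 to 3126 in Control. Tagln alone averaged 1299 to 1658 FPKM by group, whereas Myh11 averaged 3.05 to 5.99 and Myocd 0.463 to 0.767. The endothelial markers Cdh5, Kdr, Emcn and Tie1, the macrophage markers Ptprc, C1qa and C1qb and 1 of 6 pericyte markers, Rgs5, were at 0 in all 9 libraries. Of the same lists, Egfl7 averaged 12.4 to 16.1 FPKM by group, Cd14 13.8 to 18.5 and Cd68 3.16 to 3.60. Of 8 adventitial fibroblast markers, 6 averaged at least 1 FPKM in PDGF-BB+PTUPB and Control and 5 in PDGF-BB. That list summed to 831 to 2156 FPKM.

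Pdgfra and Pdgfrb had higher FPKM than every ligand in all 9 libraries. Pdgfra averaged 211 ± 33.1 FPKM in PDGF-BB+PTUPB, 143 ± 19.1 FPKM in PDGF-BB and 266 ± 25.1 FPKM in Control (SD, n = 3 each), which placed it above 96.9%, 95.0% and 97.7% of tested genes in those groups. Pdgfrb followed with 160.3 ± 1.82, 102 ± 3.66 and 201 ± 6.14 FPKM in the same groups. The ranges of the receptors did not overlap in any group. Pdgfrl (31.6, 27.5 and 24.0 FPKM) and Pdgfa (25.5, 22.8 and 22.5 FPKM) came next in the same groups, and their ranges overlapped in Control but not in the other groups.

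Pdgfd averaged 6.84 FPKM in PDGF-BB+PTUPB, 3.73 FPKM in PDGF-BB and 7.93 FPKM in Control, and Pdgfc 6.31, 10.4 and 5.41 FPKM. Pdgfc therefore stood above Pdgfd in PDGF-BB and below it in Control, with ranges that did not overlap in either, while in PDGF-BB+PTUPB the ranges overlapped. Pdgfb, the gene of the chain that was added as protein, had 0 counts in all 9 libraries. A count of 0 allows up to 3 counts per library, which for Pdgfb is 0.0812 to 0.108 FPKM, and such limits cover counting error only. A set of 10 broadly expressed genes chosen after the data were seen had counts in every library. The other 6 members had an FPKM of at least 1 in every library, so none of them entered the test through its higher group alone. The other receptor genes of the same kinase class, Kit, Csf1r and Flt3, reached at most 0.0200, 0.230 and 0.0300 FPKM in any library and were not tested.

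**Figure D1:**
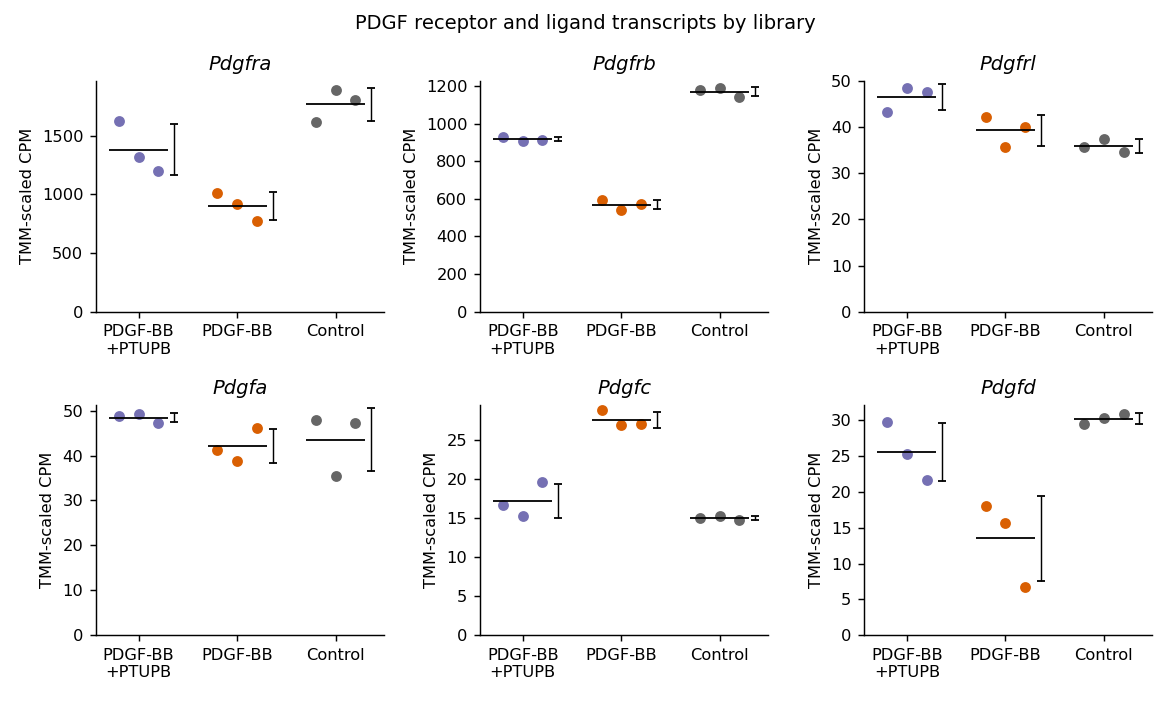
TMM-scaled CPM of Pdgfra, Pdgfrb, Pdgfrl, Pdgfa, Pdgfc and Pdgfd in each library of PDGF-BB+PTUPB, PDGF-BB and Control. Points are libraries in replicate order, horizontal lines are group means and the bars beside them are ± 1 SD (n = 3); the PDGF-BB libraries are the lowest for Pdgfra, Pdgfrb and Pdgfd and the highest for Pdgfc.

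The comparison of PDGF-BB with Control shows what the family's own transcripts did under its ligand. Both receptors and Pdgfd fell, and Pdgfc rose. Of the 6 tested members, 4 passed (edgeR's quasi-likelihood F test, with p adjusted by Benjamini-Hochberg over all 11197 tested genes and called below 0.05), 3 lower and 1 higher. Of all tested genes 33.2% passed, 15.8% lower and 17.3% higher. The groups did not overlap for the 4 members that passed, against 44.6% of all tested genes, and 22% of all tested genes did so with PDGF-BB lower. The median log2 change was -0.51 over the 6 members and -0.02 over all tested genes. With scaling by library totals alone, 2410 genes were higher and 1350 lower in place of 1942 and 1772, and the same count of 4 members passed. In bulk RNA, fewer cells of a type and less RNA per cell cannot be told apart.

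Pdgfrb, the main receptor for PDGF-BB, had 592, 543 and 572 CPM in PDGF-BB replicates 1 to 3, against 1177, 1190.2 and 1144 CPM in Control replicates 1 to 3. The fitted level in PDGF-BB was 0.486 times that in Control, and the replicates of each group lay close together. The log2 change was -1.04 ± 0.07 (SE; edgeR adjusted p = 1.02e-05), and it ranked 24 of 11197 genes by p. Pdgfra, the alpha receptor, had 1015, 921 and 778 CPM in PDGF-BB and 1616, 1892 and 1801 CPM in Control. The groups did not overlap, with a wider spread than for Pdgfrb, and the log2 change was -0.97 ± 0.13 (edgeR adjusted p = 4.49e-04). Neither receptor call was lost under the 20 alternatives of scaling, test, filter, replicate block and left-out libraries.

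Whether the fall differed between the receptors could not be decided with 3 libraries per group. Within each library the ratio of Pdgfra to Pdgfrb FPKM, from which library scaling cancels, was 1.498, 1.48 and 1.19 in PDGF-BB and 1.20, 1.39 and 1.38 in Control. The log2 ratio differed by 0.07 between the groups (exact two-sided permutation p = 0.6, n = 3 each, smallest possible p 0.1), less than its SD of 0.19 in PDGF-BB. Without both libraries that stood apart, an alternative chosen after the data were seen, the ratios left were higher in PDGF-BB, without overlap. Pdgfrl had 42.1, 35.7 and 40.1 CPM in PDGF-BB and 35.8, 37.5 and 34.6 CPM in Control. Its groups overlapped, and the log2 change of 0.13 ± 0.09 did not pass (edgeR adjusted p = 0.297, 95% interval -0.09 to 0.35).

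Among the ligands, Pdgfc, whose product is secreted in latent form and signals mainly through the alpha receptor, had 28.8, 27.0 and 27.0 CPM in PDGF-BB and 15.0, 15.3 and 14.8 CPM in Control. The groups stood well apart, with a log2 change of 0.88 ± 0.10 (edgeR adjusted p = 1.90e-04). Pdgfd, a ligand of the beta receptor that is also secreted in latent form, had 18.1, 15.7 and 6.79 CPM in PDGF-BB and 29.4, 30.3 and 30.8 CPM in Control. All PDGF-BB libraries were lower than all Control libraries, and PDGF-BB replicate 3 was the lowest of all 9. The log2 change was -1.16 ± 0.27 (edgeR adjusted p = 0.00850) and -0.84 without PDGF-BB replicate 3 (adjusted p = 0.00150; range over 20 alternatives 1.71e-04 to 0.0324).

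Pdgfa, the most abundant ligand transcript, had 41.1, 38.9 and 46.2 CPM in PDGF-BB and 47.9, 35.4 and 47.3 CPM in Control. The groups overlapped, and Control replicate 2 was lower than all other libraries. The log2 change of -0.05 ± 0.12 did not pass (edgeR adjusted p = 0.786, 95% interval -0.34 to 0.25). Without both Control replicate 2 and PDGF-BB replicate 3, the libraries that stood apart, the log2 change of Pdgfa was -0.25 and passed (adjusted p = 0.0312; range over 20 alternatives 0.0312 to 0.944).

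PDGF-BB+PTUPB was set against PDGF-BB to see what the pretreatment changed in cells given the growth factor. Transcripts of both receptors and of Pdgfd were higher with PTUPB, and Pdgfc was lower. Of the 6 tested members 4 passed, 3 higher and 1 lower, where 18.3% of all tested genes passed, 8.28% higher and 10% lower. The groups did not overlap for any of the 6 members, against 40.7% of all tested genes (20.7% with PDGF-BB+PTUPB lower). The median log2 change was 0.43 over the 6 members and 0.01 over all tested genes. With scaling by library totals alone 760 genes were higher and 1414 lower in place of 927 and 1121, and 4 members again passed. This comparison and the previous one share the PDGF-BB libraries, so a low or high value there moves both in opposite directions.

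Pdgfrb had 929.9, 910.4 and 911 CPM in PDGF-BB+PTUPB replicates 1 to 3, against the 543 to 592 CPM of PDGF-BB. The PDGF-BB+PTUPB libraries lay close together and all above PDGF-BB, and the log2 change was 0.69 ± 0.07 (edgeR adjusted p = 5.62e-04). Pdgfra had 1625, 1315 and 1202 CPM in PDGF-BB+PTUPB, against 778 to 1015 CPM in PDGF-BB. Its groups did not overlap either, and the log2 change was 0.61 ± 0.13 (edgeR adjusted p of 0.0115). The log2 ratio of Pdgfra to Pdgfrb was 0.39 ± 0.21 in PDGF-BB+PTUPB and 0.47 ± 0.19 in PDGF-BB (SD; exact two-sided permutation p = 0.7, n = 3 each). Pdgfrl had 43.4, 48.6 and 47.6 CPM in PDGF-BB+PTUPB, all above PDGF-BB, but its log2 change of 0.24 ± 0.09 did not pass (edgeR adjusted p = 0.0854).

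Pdgfc had 16.6, 15.3 and 19.6 CPM in PDGF-BB+PTUPB, against 27.0 to 28.8 CPM in PDGF-BB. The log2 change was -0.68 ± 0.10 (edgeR adjusted p = 0.00249), and the call held under all 20 alternatives. Pdgfd had 29.7, 25.3 and 21.7 CPM in PDGF-BB+PTUPB, against 6.79 to 18.1 CPM in PDGF-BB. Its log2 change of 0.92 ± 0.27 passed narrowly (edgeR adjusted p = 0.0413; range over 20 alternatives 0.00653 to 0.140). The Pdgfd call was lost in 8 of the 20 alternatives. Among them were the fits without PDGF-BB+PTUPB replicate 1 (0.140), 2 (0.0992) or 3 (0.0661), PDGF-BB replicate 2 (0.0666) and Control replicate 1 (0.0546) or 3 (0.0636). Without PDGF-BB replicate 3 the change was 0.60 (0.0158). Pdgfa had 48.8, 49.2 and 47.3 CPM in PDGF-BB+PTUPB, all just above PDGF-BB, and its log2 change of 0.20 ± 0.12 did not pass (edgeR adjusted p = 0.277). Without both Control replicate 2 and PDGF-BB replicate 3 it did, at 0.28 (adjusted p = 0.0208; range over 20 alternatives 0.0208 to 0.512).

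**Figure D2:**
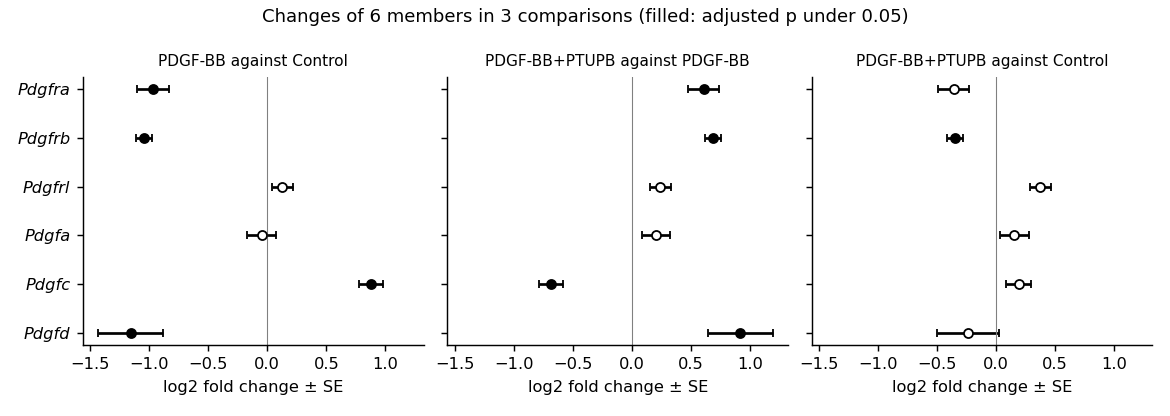
Log2 fold changes of 6 members in 3 comparisons, as points with ± SE bars from the edgeR fit of all 9 libraries; filled points had an adjusted p under 0.05. Pdgfra, Pdgfrb and Pdgfd lie left of 0 and Pdgfc right of it for PDGF-BB against Control, and on the other side for PDGF-BB+PTUPB against PDGF-BB.

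The comparison of PDGF-BB+PTUPB with Control shows where the family stood after both treatments. Pdgfrb was lower, and it was the member that passed, 1 of 6, where 2.21% of all tested genes passed, 1.89% higher and 0.313% lower. The groups did not overlap for 3 members (Pdgfrb, Pdgfrl and Pdgfc), against 21.5% of all tested genes (9.38% of all tested genes with PDGF-BB+PTUPB lower). The 910.4 to 929.9 CPM of Pdgfrb in PDGF-BB+PTUPB lay below the 1144 to 1190.2 CPM of Control without overlap. Its log2 change was -0.35 ± 0.07 (edgeR adjusted p = 0.0257, range over 20 alternatives 2.75e-06 to 0.150). The log2 change stayed between -0.37 and -0.32 in those alternatives. The call was lost without PDGF-BB+PTUPB replicate 1 (0.0700), 2 (0.150) or 3 (0.127), PDGF-BB replicate 1 (0.0536) or Control replicate 1 (0.0614) or 3 (0.0761), and when the fit took replicate number as a block (0.0829).

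Pdgfra, with a log2 change of -0.36 ± 0.13, was of the same size but did not pass (edgeR adjusted p = 0.266, 95% interval -0.68 to -0.04), and its groups overlapped. Pdgfrl was higher in all PDGF-BB+PTUPB libraries than in all Control libraries, at 46.5 ± 2.76 CPM and 36.0 ± 1.46 CPM (SD, n = 3 each). Its log2 change of 0.37 ± 0.09 did not pass (edgeR adjusted p = 0.0695; range over 20 alternatives 0.0188 to 0.294). It did pass with scaling by library totals (0.0483), DESeq2 (0.0188), limma at a pseudocount of 1 (0.0415) or 0.1 (0.0421), and without both libraries that stood apart (0.0232). Pdgfc (0.19 ± 0.11, adjusted p = 0.476), Pdgfa (0.15 ± 0.12, 0.637) and Pdgfd (-0.24 ± 0.26, 0.756) did not pass by edgeR. Their 95% intervals on the log2 scale ran from -0.07 to 0.45, from -0.14 to 0.45 and from -0.87 to 0.40.

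Shares within a library do not depend on library scaling. Pdgfc made up 15.4%, 14.7% and 19.0% of summed ligand FPKM in PDGF-BB+PTUPB replicates 1 to 3, 28.5%, 28.6% and 27.5% in PDGF-BB and 14.3%, 17.3% and 14.0% in Control. PDGF-BB lay above both other groups, which overlapped. Pdgfd made up 15.3% to 20.0% in PDGF-BB+PTUPB, 5.04% to 13.0% in PDGF-BB and 20.4% to 25.0% in Control, and these groups did not overlap. The share of Pdgfa was 64.6%, 67.6% and 65.7% in PDGF-BB+PTUPB, 58.4%, 59.2% and 67.5% in PDGF-BB and 65.4%, 57.7% and 64.6% in Control. PDGF-BB replicate 3 and Control replicate 2, the libraries that stood apart, each lay away from the rest of their group. For Pdgfa, PDGF-BB differed from Control by -0.81 percentage points (exact two-sided permutation p = 1), PDGF-BB+PTUPB from PDGF-BB by 4.27 (p = 0.3) and PDGF-BB+PTUPB from Control by 3.47 (p = 0.2), where 3 against 3 libraries allow no p below 0.1. Without both libraries that stood apart these differences were -6.12, 7.15 and 1.03 percentage points, and the PDGF-BB and Control libraries left did not overlap. That alternative was chosen after the data were seen, and the first difference ran from -3.69 to 0.83 with single libraries left out, so its size and direction rest on those libraries.

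The summed FPKM of Pdgfra and Pdgfrb was 9.05 to 10.3 times that of the ligands in PDGF-BB+PTUPB, 6.07 to 6.98 times in PDGF-BB and 11.7 to 15.4 times in Control, with no overlap between groups. The ligand sum itself was 38.0 to 39.7 FPKM in PDGF-BB+PTUPB, 36.0 to 38.0 FPKM in PDGF-BB and 32.3 to 37.8 FPKM in Control. The receptor sum was 344 to 411 FPKM in PDGF-BB+PTUPB, 224 to 265 FPKM in PDGF-BB and 438 to 497 FPKM in Control.

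**Figure D3:**
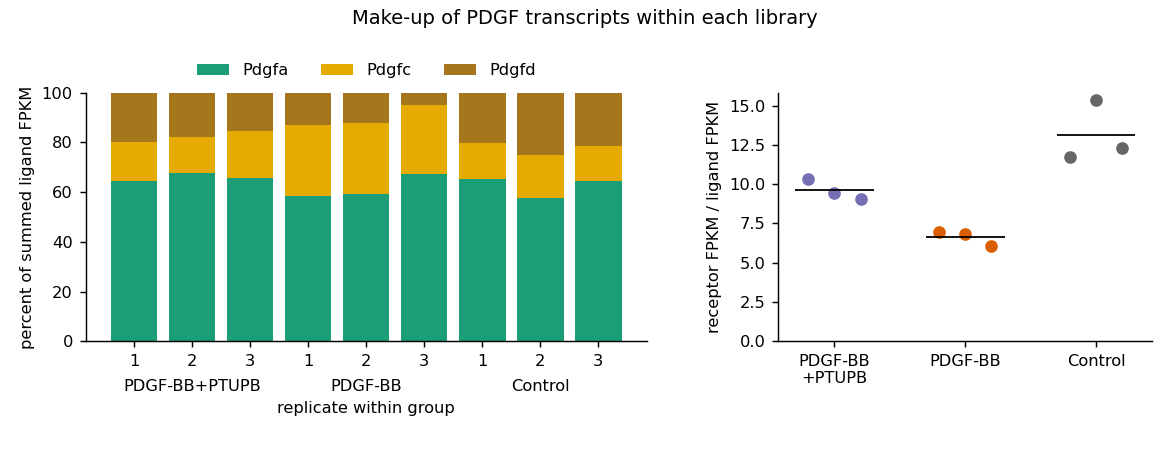
Left, share of Pdgfa, Pdgfc and Pdgfd in the summed ligand FPKM of each library, in percent; Pdgfb was 0 throughout. Right, summed FPKM of Pdgfra and Pdgfrb divided by the summed ligand FPKM, with points for libraries and lines for means; PDGF-BB libraries lie between 6.07 and 6.98 and Control libraries between 11.7 and 15.4.

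Beside the PDGF receptors, 16 of 28 other receptor tyrosine kinase genes were tested. In PDGF-BB 8 were lower and 2 higher than in Control, against 15.8% and 17.3% of all tested genes. Their median log2 change was -0.30, against -0.02 over all tested genes. The collagen receptor gene Ddr2 (172 ± 29.1 CPM in PDGF-BB and 276 ± 20.0 CPM in Control; log2 change -0.68 ± 0.11, edgeR adjusted p = 0.00140) and the fibroblast growth factor receptor gene Fgfr2 (-0.84 ± 0.17) fell, while the GAS6 receptor gene Axl rose (0.39 ± 0.08). With PTUPB, 1 of the 16 was higher and 1 lower than in PDGF-BB, against 8.28% and 10% of all tested genes. These were Ddr2 at 0.41 ± 0.11 and Axl at -0.44 ± 0.08. Without both libraries that stood apart, 4 were higher and 1 lower. Fgfr2 was lower in PDGF-BB+PTUPB than in Control (-0.76 ± 0.16, edgeR adjusted p = 0.0439). It was 1 of the 16 in that comparison, against 0.313% of all tested genes. The count there depended on the setting, with 3 lower by DESeq2, 0 by limma on log2(FPKM + 1) and 6 without both libraries that stood apart. Over all 11197 tested genes, 441 passed in either direction by DESeq2 and 1345 without both libraries, against 247 in the main fit. An unadjusted edgeR p under 0.05 was found for 5 of the 16 and for 1532 of all tested genes.

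Of 5 tested genes of the related vascular endothelial growth factor ligands, 3 were lower in PDGF-BB than in Control and 0 higher. The shares over all tested genes were 15.8% and 17.3%. Vegfd changed most (-1.52 ± 0.13, edgeR adjusted p = 2.83e-05), with Vegfb at -0.81 ± 0.14 and Vegfa at -0.58 ± 0.07. With PTUPB the same 3 genes were higher than in PDGF-BB, Vegfd by 1.10 ± 0.13, Vegfa by 0.56 ± 0.07 and Vegfb by 0.55 ± 0.14 on the log2 scale. The 1 gene that was lower was Vegfc (-0.29 ± 0.08), named outside the rule after its values were seen. With PTUPB 8.28% of all tested genes were higher and 10% lower. Between PDGF-BB+PTUPB and Control 0 of the 5 passed by edgeR or DESeq2, and 2 had an unadjusted edgeR p under 0.05.

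Of 12 tested genes that process or bind PDGF ligands, 3 were lower and 1 higher in PDGF-BB than in Control. These 4 of 12, Plau among them, are close to the 33.2% of all tested genes that passed, and 15.8% of all tested genes were lower. Lrp1, an endocytic receptor that associates with the beta receptor, had 2714 ± 158 CPM in PDGF-BB and 5758 ± 1013 CPM in Control (log2 change -1.09 ± 0.13, edgeR adjusted p = 1.95e-04). The proprotein convertase gene Pcsk5 (-0.78 ± 0.08) and the co-receptor gene Nrp1 (-0.44 ± 0.14) fell as well. The 1 higher gene was Plau, the urokinase gene, known to activate the D chain, named after its values were seen. It averaged 0.640 FPKM in PDGF-BB+PTUPB, 1.53 FPKM in PDGF-BB and 0.490 FPKM in Control, so it passed the filter on low values only through PDGF-BB, and its difference is given as a description.

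With PTUPB 3 of the 12 were higher and 2, Plau among them, lower than in PDGF-BB, against 8.28% and 10% of all tested genes. Lrp1 (0.73 ± 0.13) and Pcsk5 (0.62 ± 0.08) were higher, and Plat, the tissue plasminogen activator gene, known to activate the C chain, was lower (30.7 ± 3.07 CPM in PDGF-BB+PTUPB and 45.1 ± 4.44 CPM in PDGF-BB; log2 change -0.56 ± 0.14, edgeR adjusted p = 0.0194). Without both libraries that stood apart, 2 of the 12 were higher and 5 lower in PDGF-BB than in Control.

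Of 29 tested genes of receptor-proximal signalling, 3 were higher and 2 lower in PDGF-BB than in Control. Both are smaller shares than the 17.3% and 15.8% of all tested genes. The median log2 change was -0.10, against -0.02 over all tested genes. The adaptor gene Grb2 (0.36 ± 0.10), Hras (0.43 ± 0.10) and the MAPK kinase gene Map2k1 (0.27 ± 0.08) rose. With PTUPB 0 were higher and 2 lower than in PDGF-BB, Grb2 (-0.42 ± 0.10) and Hras (-0.41 ± 0.10), against 8.28% and 10% of all tested genes. Without both libraries that stood apart, 3 were higher and 7 lower in PDGF-BB than in Control, and 2 were higher and 4 lower with PTUPB than in PDGF-BB. With scaling by library totals 3 were higher and 0 lower in PDGF-BB than in Control.

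Of 14 tested genes of receptor turnover and dephosphorylation, 1 was higher and 5 were lower in PDGF-BB than in Control. The shares over all tested genes were 17.3% and 15.8%. Cav1, the caveolin gene, had 527 ± 29.0 CPM in PDGF-BB and 328 ± 27.2 CPM in Control (0.68 ± 0.09, edgeR adjusted p = 3.96e-04). Slc9a3r1, whose product is a scaffold that binds the beta receptor, changed by -0.52 ± 0.09 and the endosomal deubiquitinase gene Usp8 by -0.46 ± 0.13. With PTUPB 1 was higher and 3 lower than in PDGF-BB, against 8.28% and 10% of all tested genes. Slc9a3r1 changed by 0.31 ± 0.09, Cav1 by -0.57 ± 0.09 and the low molecular weight phosphatase gene Acp1 by -0.57 ± 0.16. With scaling by library totals, 2 of the 14 were higher and 2 lower in PDGF-BB than in Control. Between PDGF-BB+PTUPB and Control 0 genes of these 3 pathway lists passed by edgeR with all 9 libraries. An unadjusted edgeR p under 0.05 was found for 4 of the 12 ligand-binding genes, 0 of the 29 signalling genes and 4 of the 14 turnover genes, and DESeq2 called 0, 0 and 1. Without both libraries that stood apart, 3 of the 12, 2 of the 29 and 1 of the 14 were lower by edgeR.

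**Figure D4:**
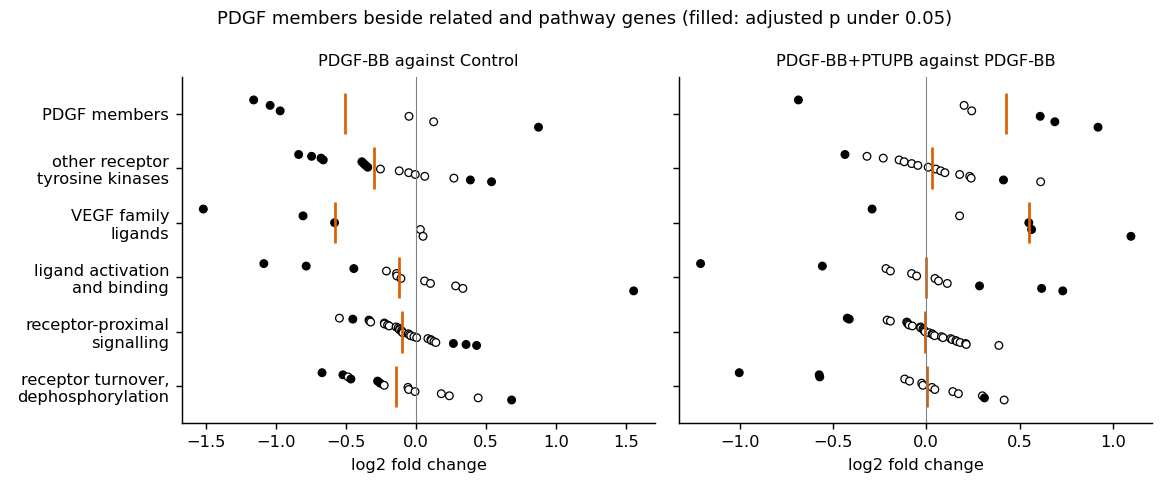
Log2 fold changes of the 6 tested PDGF members beside related and pathway genes, for PDGF-BB against Control and for PDGF-BB+PTUPB against PDGF-BB. Each point is a gene, filled where the adjusted p was under 0.05, and vertical bars are list medians; the receptor-proximal list centres near 0, at -0.10 and -0.01.

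Some markers of adventitial fibroblasts, cells that also carry Pdgfra, changed in the same direction as the receptors. Of 8 such markers 6 were tested. In PDGF-BB 4 were lower and 0 higher than in Control, against 15.8% and 17.3% of all tested genes. Lum (-0.43 ± 0.26, edgeR adjusted p = 0.225) and Pi16 (-0.17 ± 0.17, 0.461) did not pass there. Without both libraries that stood apart, 3 were lower. In PDGF-BB+PTUPB 3 were higher and 0 lower than in PDGF-BB, against 8.28% and 10% of all tested genes. Col14a1, 1 of the 4 lower in PDGF-BB than in Control, averaged 2.63 FPKM in PDGF-BB+PTUPB, 0.98 in PDGF-BB and 3.56 in Control. It would not have passed the filter on low values through PDGF-BB alone, and its differences are given as a description. The list summed to 1332 to 1502 FPKM in PDGF-BB+PTUPB, 831 to 1191 FPKM in PDGF-BB and 1212 to 2156 FPKM in Control. Scara5 changed by -1.44 ± 0.10 in PDGF-BB against Control and by 1.11 ± 0.10 with PTUPB. Cd34 was at 0 in all PDGF-BB+PTUPB and PDGF-BB libraries and at most 0.0800 FPKM in Control, and Dpt was at most 0.220 FPKM in any library. Of 8 tested smooth muscle markers 5 were lower and 0 higher in PDGF-BB than in Control, against 15.8% and 17.3% of all tested genes. Tagln (0.28 ± 0.13, edgeR adjusted p = 0.127), Cnn1 (0.32 ± 0.15, 0.129) and Smtn (-0.00 ± 0.13, 0.999) did not pass there. With PTUPB 2 were higher and 0 lower than in PDGF-BB, against 8.28% and 10% of all tested genes. Changes below 0 that did not pass were those of Cnn1 (-0.24 ± 0.15), Smtn (-0.12 ± 0.13) and Tagln (-0.01 ± 0.13). Between PDGF-BB+PTUPB and Control 0 of the 8 passed by edgeR, and 3 had an unadjusted edgeR p under 0.05. By DESeq2 1 was lower there, and without both libraries that stood apart 6 were lower by edgeR. The endothelial list summed to 15.5 to 17.9 FPKM in PDGF-BB+PTUPB, 13.0 to 14.4 FPKM in PDGF-BB and 12.4 to 13.2 FPKM in Control, with Egfl7 as its only gene above a mean of 1 FPKM. The macrophage list summed to 21.3 to 22.2, 16.7 to 18.4 and 15.4 to 24.1 FPKM in the same groups, with Cd68 and Cd14 above that mean. Pericytes are known to carry Pdgfrb, and of 6 pericyte markers 4 averaged at least 1 FPKM in every group. Their list summed to 11.0 to 11.7 FPKM in PDGF-BB+PTUPB, 12.4 to 14.6 FPKM in PDGF-BB and 11.2 to 12.4 FPKM in Control. Of the 4 tested, 1 was higher and 2 were lower in PDGF-BB than in Control, against 17.3% and 15.8% of all tested genes. Cspg4 was higher (1.01 ± 0.20), and Kcnj8 (-0.53 ± 0.15) and Abcc9 (-0.59 ± 0.20) were lower. Without both libraries that stood apart 1 of the 4 was higher and 0 lower. The part of these marker lists in the receptor changes was not tested.

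The genes whose pattern was most like that of Pdgfrb, by the root mean square difference between log2 CPM deviations over the 9 libraries, were Ostm1 (0.0691), the heparan sulfate sulfatase gene Sulf2 (0.0713) and the chemokine gene Cxcl12 (0.0936). The same deviations of Pdgfrb itself had a root mean square of 0.433. Sulf2 averaged 471 CPM in PDGF-BB+PTUPB, 282 CPM in PDGF-BB and 567 CPM in Control. Nearest to Pdgfra were the kinase gene Map4k3 (0.0796), Pros1, which encodes the anticoagulant protein S (0.0844), and the monooxygenase gene Fmo4 (0.0962). Pros1 averaged 311, 200.5 and 373 CPM in PDGF-BB+PTUPB, PDGF-BB and Control. Nearest to Pdgfa were the myosin light chain gene Myl9 (0.0570) and the phospholipase gene Plcb3 (0.0700). These were among the closest of 10297 named genes and are given as a description of these libraries.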

How the data were processed

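The authors deposited 1 table with an expected count, an FPKM and an exonic length for each of 32623 rat Ensembl genes in 9 libraries. The labels describe TRIzol extracts, poly(A) selection and paired-end sequencing. Per the submitters' processing notes, cutadapt 1.9.1, HISAT2 2.0.1 and HTSeq 0.6.1 were used, and the build named, mm10, is a mouse build, so no coordinates of the deposited table are given. In 978 genes a deposited count is not whole, none of them a member, and how these were made is not known. Deposited FPKM equalled values recomputed from counts and exonic lengths within 0.006 for 100% of values. Strand use in counting is not given in the sources used here, so reads of overlapping antisense genes cannot be told apart.

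Columns are named by abbreviations (C, P and P-PT with a number), which were matched to the sample titles. Counts were rounded and fitted with edgeR 4.0.16 in R 4.3.3 (TMM scaling and the quasi-likelihood F test in 1 fit whose single term was group, with 6 residual degrees of freedom). The fit covered 11197 genes that reached 1 FPKM in 3 or more libraries. SE is the log2 change divided by the square root of F, and 95% intervals use 6 degrees of freedom, fewer than the test, so they are wider than the test implies. The biological coefficient of variation was 0.137. The procedure was tested on simulated data. Depth was 12729187 to 16911050 counts, and 3 counts correspond to 0.177 to 0.236 CPM. Alternatives were other scalings, DESeq2 1.42.0, limma 3.58.1 on log2(FPKM + 1) or log2(FPKM + 0.1), other filters, a replicate block and left-out libraries. No pair of libraries in a group agreed within sampling noise (chi-square per degree of freedom of at least 5.98).

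All members are named. Of each list, up to 3 called genes per comparison are named by smallest p among those whose higher group averaged 2 FPKM or more, and also the 3 genes of most like pattern for Pdgfra, Pdgfrb and the most abundant ligand. A gene that this rule names is not reported here. The members and lists were chosen with earlier results of these data known. Promoter sequences are from RefSeq, build GRCr8.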

Additional observations from a re-analysis of the deposited data

How the results depend on the processing

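Between PDGF-BB and Control 4 members passed in all 20 alternatives except that 5 passed with both Control replicate 2 and PDGF-BB replicate 3 left out. For PDGF-BB+PTUPB against PDGF-BB the count was 3 to 4 when single libraries were left out. Between PDGF-BB+PTUPB and Control it was 0 to 1 when single libraries were left out, 0 with the replicate block, and 2 with library totals, DESeq2, limma at either pseudocount, or both those libraries left out. Over all genes, leaving out single libraries gave 2770 to 3902 calls for PDGF-BB against Control (3714 with all), 1002 to 2463 for PDGF-BB+PTUPB against PDGF-BB (2048) and 93 to 340 for PDGF-BB+PTUPB against Control (247). The last was 441 with DESeq2 and 1345 with both of those libraries left out; the cause was not tested. The difference in the share of Pdgfa between PDGF-BB and Control was -0.81 percentage points with all libraries and -6.12 with both of those libraries left out, an alternative chosen after seeing the data. With single libraries left out the share differences ran from -3.69 to 0.83 for PDGF-BB against Control, from 2.64 to 7.15 for PDGF-BB+PTUPB against PDGF-BB and from 1.03 to 4.88 for PDGF-BB+PTUPB against Control. The log2 ratio of Pdgfra to Pdgfrb differed by 0.21 between PDGF-BB and Control with both left out, against 0.07 with all. With single libraries left out, the differences of the log2 ratio ran from -0.00 to 0.18 for PDGF-BB against Control, from -0.20 to 0.01 for PDGF-BB+PTUPB against PDGF-BB and from -0.13 to 0.07 for PDGF-BB+PTUPB against Control.

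Replicate numbers were not taken as pairs: deviations of same-numbered libraries correlated at -0.266 to 0.185. With the replicate block, 3294, 1602 and 168 genes passed in the comparisons as ordered above, and the Pdgfrb call between PDGF-BB+PTUPB and Control was the member call that changed. Depth limits the statement on Pdgfb to levels above its limit for a count of 0.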
